A study of Schmidtea mediterranea with 18 samples.

Results

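Described here are 156 transcripts, of 82955 in the count table, whose level was lowest after APC RNAi, intermediate in control animals and highest after Bcat RNAi at each of the 6 days sampled. They were chosen by that pattern. Read counts scaled to the aligned reads of the library (CPM) were averaged over the 6 days of each treatment, and 0.1 was added. The largest of the 3 means had to reach 2.1, Bcat over APC had to be at least 2, APC over control at most 0.83 and Bcat over control at least 1.2, and the order had to hold at each day. The differences between treatments below therefore restate the choice and are given as description, with no test; the slope over days, which the rule does not use directly, was tested. It is not wholly separate from the choice, which used each day's level.

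The animals were planarians, Schmidtea mediterranea, flatworms that regrow any missing body region from stem cells, of the clonal asexual strain CIW4. They were fed double-stranded RNA 3 times, against apc (APC RNAi), against Smed-Bcatenin1 (Bcat RNAi) or against GFP (control RNAi), and amputated 3 days after the last feed. PolyA RNA of the regenerating fragments was taken daily from day 1 to day 6 after amputation, from trunks by most labels and from tails by the treatment protocol. RNA of 3 biological replicates was pooled for each library, so there was 1 library per treatment and day, 6 per treatment, and an SD below is over the 6 days of a treatment.

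Beta-catenin is the effector of canonical Wnt signalling, and the APC protein promotes its breakdown, so knocking down apc raises beta-catenin activity and knocking down beta-catenin lowers it. In planarians this activity is high toward the tail and low toward the head: after apc RNAi wounds regenerate tails, and after beta-catenin-1 RNAi they regenerate heads. The name "graded down with beta-catenin activity" rests on this background. The libraries hold no measure of the activity itself, and the files do not pair the transcript identifiers with genes, so the knocked-down mRNAs could not be read and no transcript below is given a gene name or a role. Each is called by its identifier. Near-identical transcripts and isoforms of 1 gene may be listed apart, and their counts are uncertain. In RNA of whole fragments, fewer cells of a type and less RNA per cell cannot be told apart.

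Libraries held 41549185 to 58308153 aligned reads, so 1 read was worth 0.0172 to 0.0241 CPM. Over 17939 transcripts that are not among the 156, most libraries were nearest to one of their own treatment; the exception was control day 1, nearest to APC RNAi day 3 (SD of the log2 difference 0.214, against 0.230 to the nearest control library). APC RNAi day 5 and Bcat RNAi day 1 stood farthest from any other library, at 0.286 and 0.265. The share of reads from transcripts under 1 CPM was 0.726% ± 0.130 in APC RNAi, 1.11% ± 0.138 under Bcat RNAi and 1.14% ± 0.171 in control (SD, n = 6 each). It was thus lowest where the 156 were lowest, and its part in the pattern was not tested.

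Of the 82955 transcripts, 15799 reached the minimum level, 296 of these also had Bcat over APC of at least 2, 270 also met the limit on APC over control and 240 that on Bcat over control. The daily order then removed 84 and left the 156. Order alone was held at each of 6 days by 1648 of the 15799 (10.4%). The limits on level and on Bcat over APC decided more than those against control: 108 transcripts failed on level alone and 341 on Bcat over APC alone, and 3 each on APC over control and on Bcat over control. At the edges, the largest mean was 2.10044 for SmedASXL_015088 inside and 2.09 for SmedASXL_008519 outside. Bcat over APC was 2.00198 for SmedASXL_016465 inside and 1.99638 for SmedASXL_017039 outside. APC over control was 0.829629 for SmedASXL_005088 inside and 0.842 for SmedASXL_076816 outside, and Bcat over control was 1.23 for SmedASXL_007671 inside and 1.19 for SmedASXL_004272 outside.

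Together the 156 took 0.152% ± 0.0151 of aligned reads in APC RNAi, 0.454% ± 0.0836 under Bcat RNAi and 0.242% ± 0.0316 in control (SD, n = 6 each). Most were of low to middling abundance: the mean over the 18 libraries ran from 0.964 to 441 CPM with a median of 6.14, against 16.6 over the 15799 that reached the minimum level. Of the 156, 33 averaged at least 20 CPM and 70 under 5 CPM. No library was at 0 for any of them, and 4 had a library under 10 reads.

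Most of the gradients were shallow. Bcat over APC ranged from 2.00 to 31.2 with a median of 2.56, and 106 of the 156 lay under 3. APC over control ranged from 0.101 to 0.8296 with a median of 0.629, and Bcat over control from 1.23 to 7.07 with a median of 1.64. The medians of the 15799 were 1.09, 0.922 and 1.02 for the same ratios. In 104 (66.7%) neither knockdown moved the mean 2-fold from control. In 14 both did, in 23 Bcat RNAi alone and in 15 APC RNAi alone. On the log scale from APC RNAi to Bcat RNAi, control lay 19.2% to 73.8% of the way with a median of 48.8%, so 81 had control nearer to APC RNAi and 75 nearer to Bcat RNAi.

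The rule required the order within each day, but not that treatments stay apart across days. For 73 transcripts (46.8%) every Bcat RNAi library, whatever its day, lay above every control library, which held for 5.84% of the 15799. For 59 (37.8%) every control library lay above every APC RNAi library, against 8.19% of the 15799. Both held for 43 (27.6%, against 0.886%). Because the choice used these contrasts, the percentages are printed only to show its effect. The other transcripts had treatments that overlapped across days while keeping their order within each day.

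**Figure D1:**
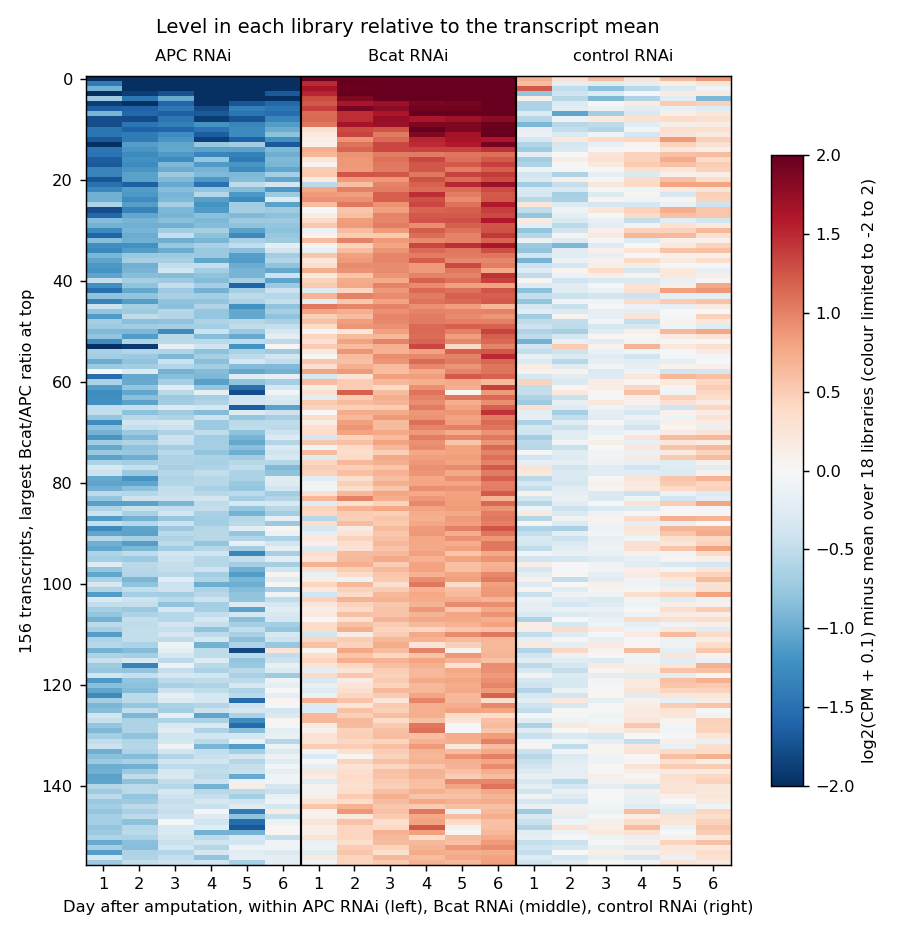
Level of each of the 156 transcripts (rows, by falling Bcat over APC ratio) in each of the 18 libraries (columns, days 1 to 6 within APC RNAi, Bcat RNAi and control RNAi), as log2(CPM + 0.1) minus the transcript's mean over the 18 libraries. APC RNAi columns are mostly blue, Bcat RNAi columns mostly red and control columns pale; the Bcat RNAi day 1 column is paler than days 2 to 6, and 130 of the 156 had their lowest Bcat RNAi level there.

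The transcripts with the widest gradient were SmedASXL_011587 and SmedASXL_050373, which had both the largest Bcat over APC and the smallest APC over control. SmedASXL_011587 had 0.262, 0.190, 0.110, 0.0722, 0.0895 and 0.0414 CPM at days 1 to 6 in APC RNAi. In Bcat RNAi it had 7.75, 7.39, 6.53, 5.95, 7.22 and 7.19 CPM, and in control 2.38, 1.76, 2.205, 1.69, 2.25 and 2.63 CPM. The 3 treatments did not overlap, and APC RNAi was close to the floor: its 6 libraries held 39 reads in all, with 2 reads at day 6 (exact 95% Poisson interval 0.242 to 7.22 reads, counting error only). Its means gave ratios of 31.2 for Bcat over APC, 0.101 for APC over control and 3.15 for Bcat over control.

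SmedASXL_050373 also had a Bcat over APC of 31.2, but reached it differently. Its levels at days 1 to 6 were 0.828, 0.209, 0.368, 0.120, 0.394 and 0.290 CPM in APC RNAi. They were 6.81, 10.7, 11.8, 16.3, 18.03 and 23.3 CPM under Bcat RNAi and 3.67, 2.06, 1.98, 2.05, 2.60 and 2.84 CPM in control. The treatments did not overlap here either, and each day in Bcat RNAi was above the day before, whereas SmedASXL_011587 stayed between 5.95 and 7.75 CPM.

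The largest Bcat over control ratios were those of SmedASXL_011883, 7.07, and SmedASXL_080365, 5.70. SmedASXL_011883 had 21.7, 13.1, 17.7, 5.97, 8.18 and 6.21 CPM at days 1 to 6 in APC RNAi. It had 88.6, 130.3, 149.8, 266, 171 and 298 CPM in Bcat RNAi, against 38.8, 24.4, 19.1, 23.6, 30.6 and 19.2 CPM in control. Bcat RNAi stood clear of both other treatments, while APC RNAi and control overlapped and nearly met at day 3.

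SmedASXL_080365 was scarce outside Bcat RNAi. In APC RNAi it had 0.384, 0.0758, 0.0368, 0.0241, 0.0895 and 0.103 CPM at days 1 to 6, the day 4 value being 1 read (exact 95% Poisson interval 0.0253 to 5.57 reads). In Bcat RNAi the values were 2.83, 3.52, 3.63, 6.07, 7.65 and 8.12 CPM, and in control 2.09, 0.566, 0.426, 0.544, 0.668 and 0.787 CPM. The treatments did not overlap. Day 1 was by far the highest day of both APC RNAi and control, and the lowest of Bcat RNAi, so the gap was narrowest then.

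The most abundant were SmedASXL_012943 and SmedASXL_018543, both with gentle gradients. SmedASXL_012943 averaged 252 ± 78.5 CPM in APC RNAi (lowest 125, median 283, highest 326), 674 ± 153 CPM after Bcat RNAi (539, 624.8 and 901) and 396 ± 92.8 CPM in control (300.1, 360.0 and 529.8; SD, n = 6 each). Every Bcat RNAi library was above every control library, and APC RNAi overlapped control. SmedASXL_018543 averaged 94.6 ± 30.0 CPM in APC RNAi (46.8, 99.2 and 133), 197 ± 52.3 CPM after Bcat RNAi (132, 203 and 282) and 151 ± 39.3 CPM in control (88.3, 152 and 198). All 3 treatments overlapped. At day 5 it was at 132 CPM in both Bcat RNAi and control, and the order rested on a difference too small to show at 3 digits.

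**Figure D2:**
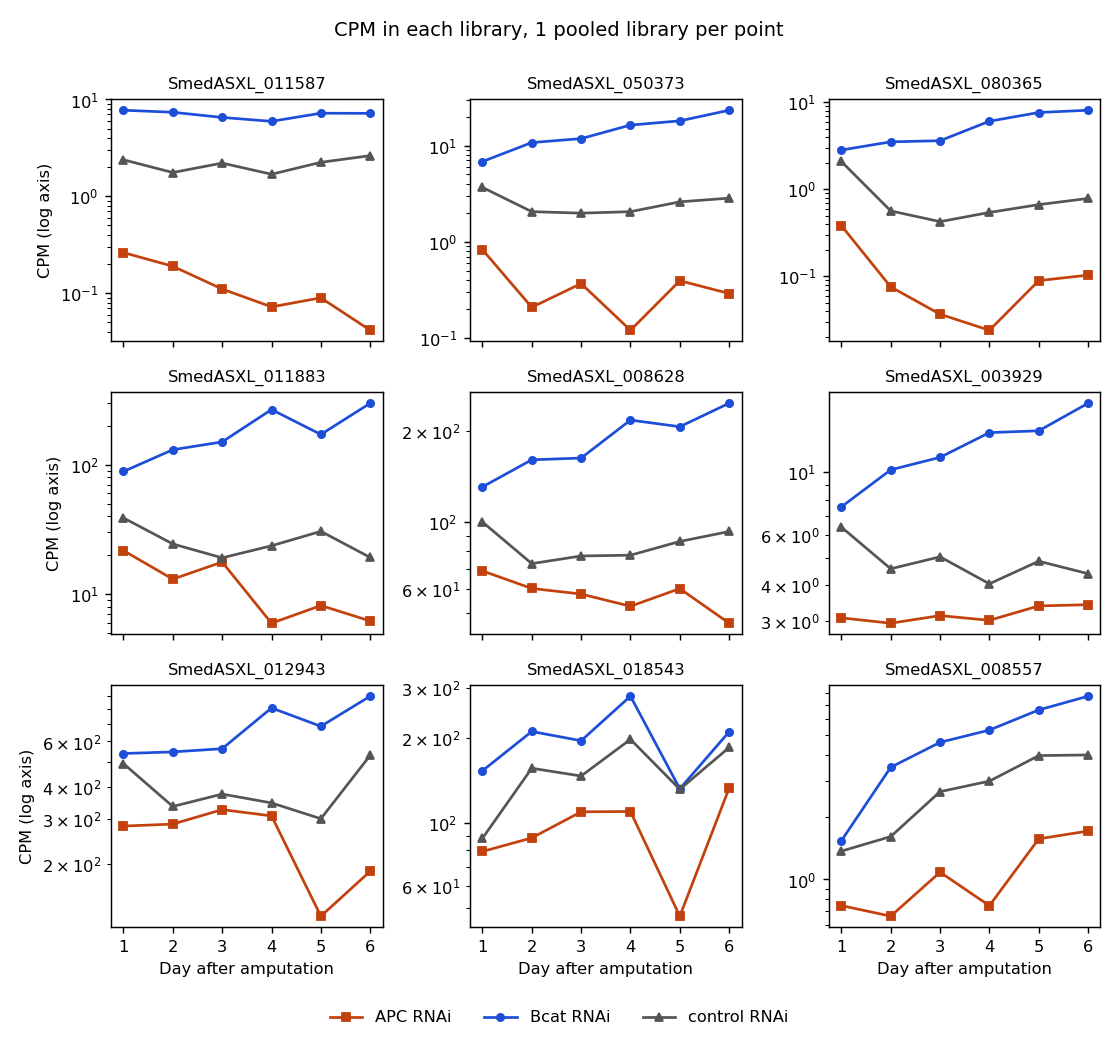
CPM (log axes, scaled to each panel) of 9 of the 156 transcripts at days 1 to 6 in APC RNAi, Bcat RNAi and control RNAi, 1 pooled library per point. In each panel the APC RNAi line is lowest and the Bcat RNAi line highest at every day, as the rule requires. SmedASXL_011587 is flat in Bcat RNAi, between 5.95 and 7.75 CPM, while SmedASXL_050373 goes up from 6.81 to 23.3 CPM there.

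The authors' deposited table, which compares APC RNAi with Bcat RNAi over all days, lists all 156 with a higher level in Bcat RNAi. It lists 7.1% of the count table in that direction, and 18.1% of the 15799 that reached the minimum level. The choice used the same contrast, so the listing is no separate evidence. The log2 fold changes in the authors' deposited table, where negative means higher in Bcat RNAi, ran from -4.69 to -0.65 for the 156 with a median of -1.06.

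The rule fixed both sides of the gradient at every day, day 1 included, so only their size per day is described. The median Bcat over control of the 156, per day on CPM + 0.1, was 1.46, 1.73, 1.67, 1.77, 1.55 and 1.62 at days 1 to 6, narrowest at day 1. The median APC over control was 0.687, 0.686, 0.713, 0.611, 0.502 and 0.601, farthest from 1 at day 5. Control therefore sat nearest to APC RNAi at day 3, at 38.6% of the log distance to Bcat RNAi, and nearest to Bcat RNAi at day 5, at 60.5%. The day 5 values rest on the APC RNAi library that stood farthest from the others. They also depend on the scaling per aligned read. That library had the lowest TMM factor, 0.803, against 1.11 for control day 5. After TMM scaling, day 5 had the fewest transcripts with APC RNAi below control, 133 of the 156. The daily medians were not computed on that scale, so the day 5 extreme may not hold there. Within a transcript, the SD of the daily log2 ratio had a median of 0.25 for APC over control and 0.21 for Bcat over control.

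**Figure D3:**
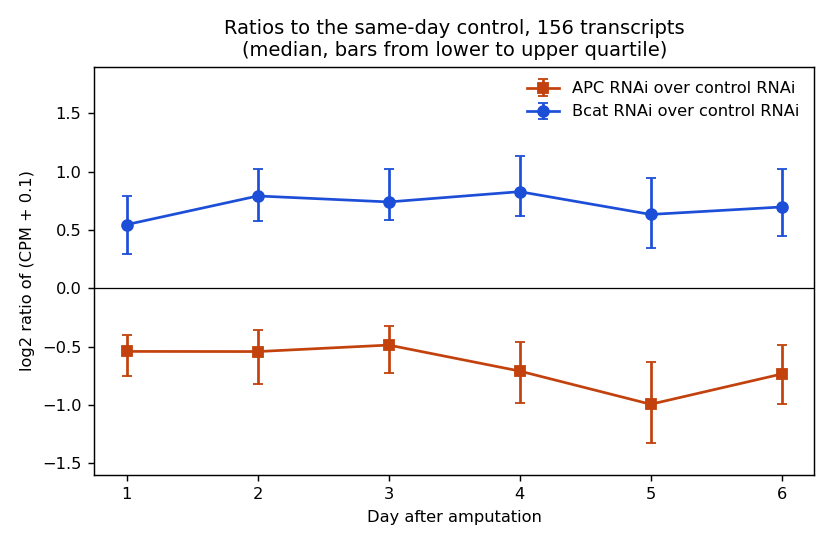
Median log2 ratio of CPM + 0.1 to the control library of the same day over the 156 transcripts, at days 1 to 6, for APC RNAi and Bcat RNAi; bars run from the lower to the upper quartile over transcripts. The Bcat RNAi medians lie between fold values of 1.46 and 1.77 and the APC RNAi medians between 0.502 and 0.713. They are on opposite sides of the control at every day, as the rule requires.

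Most of these transcripts stood higher at day 6 than at day 1 in all 3 treatments. At day 6 the median fold against day 1 of the same treatment was 1.39 in APC RNAi, 1.67 under Bcat RNAi and 1.57 in control, against 1.11, 1.02 and 1.05 over the 15799. Day 6 was above day 1 for 128, 150 and 135 of the 156 in APC RNAi, Bcat RNAi and control. The same held for 74.7%, 54.5% and 58.9% of the 15799. These values are per aligned read and depend on the scaling. After TMM scaling, slopes over days were positive for 8025, 6519 and 5127 of the 15799 in APC RNAi, Bcat RNAi and control. Of the 156, 112, 143 and 123 had positive slopes on that scale. Bcat RNAi was already at 1.29 times its day 1 level at day 2, when APC RNAi and control were both at 1.07. Day 6 was the highest day for 77 transcripts in APC RNAi, 100 under Bcat RNAi and 79 in control, and day 1 the lowest for 66, 130 and 89.

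**Figure D4:**
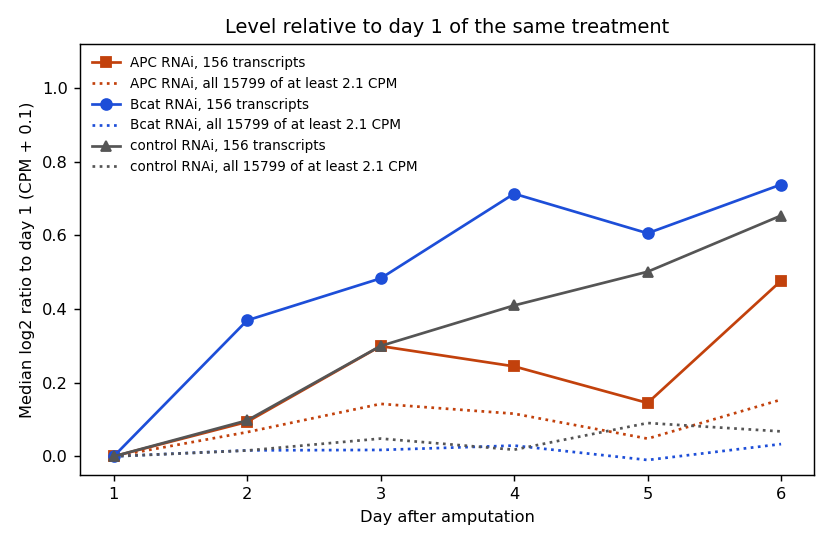
Median log2 ratio of CPM + 0.1 to day 1 of the same treatment, at days 1 to 6, for the 156 transcripts (solid lines) and for all 15799 transcripts of at least 2.1 CPM (dotted lines) in APC RNAi, Bcat RNAi and control RNAi. At day 6 the solid lines reach folds of 1.39, 1.67 and 1.57 for APC RNAi, Bcat RNAi and control, and the dotted lines 1.11, 1.02 and 1.05.

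The slope over days was tested for each treatment with edgeR's quasi-likelihood test on the counts of all 36235 transcripts that passed a filter on low counts, with TMM scaling and Benjamini-Hochberg adjustment over all of them; all 156 passed the filter. In Bcat RNAi 74 of the 156 rose (47.4%), against 2.87% of all tested, and 0 fell, against 2.25%; 1 fell at an unadjusted p under 0.05, and 0 by DESeq2. In control 47 rose (30.1%, against 2.94%) and 2 fell (against 7.24%). In APC RNAi 18 rose (11.5%, against 1.58%) and 4 fell (against 1.15%). A ± beside a slope is its SE. The median slope was 0.04 log2 units per day in APC RNAi, 0.12 under Bcat RNAi and 0.09 in control, against 0.02, 0.00 and 0.01 over all tested. A transcript that gains in Bcat RNAi also gains in the mean by which it was chosen, so the Bcat RNAi slope is not wholly separate from the choice. Among the 15799, which reach the same minimum level, 3.16% rose in APC RNAi, 5.82% under Bcat RNAi and 4.3% in control, and 2.51%, 4.84% and 15.7% fell. The 4 falls in APC RNAi (2.56%) were thus at the share of these 15799.

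These counts were lower without some libraries, and so were the shares of all transcripts tested. Without the Bcat RNAi day 1 library 13 transcripts rose in Bcat RNAi, against 0.225% of all tested, with a median slope of 0.07, and without day 1 of all treatments 20 did, against 0.384%. Without the control day 1 library 25 rose in control, against 0.581%. In APC RNAi, 6 rose without day 1, against 0.222%, 7 without day 2, against 0.415%, and 8 without day 6, against 1.41%. The falls were few in any case: those in control numbered 0 without the control day 1 library or all of day 1, 5, 4, 7 and 1 without day 2, 3, 5 or 6, and those in APC RNAi 0, 1, 8 and 2 without day 1, 2, 5 or 6, and 7 without the control day 1 library. The shares of all tested that fell were 0.824% to 12.1% in control and 0.189% to 3.43% in APC RNAi under these omissions.

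**Figure D5:**
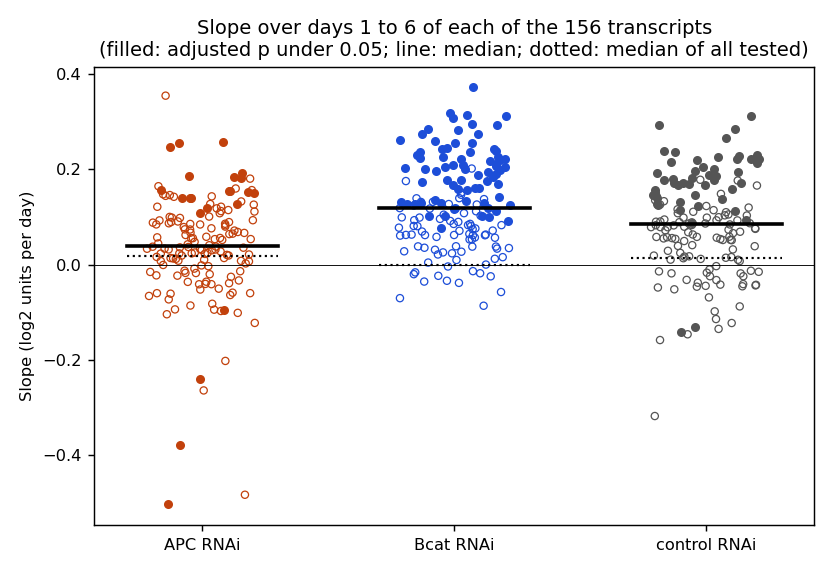
Slope over days 1 to 6 in log2 units per day of each of the 156 transcripts (points) in APC RNAi, Bcat RNAi and control RNAi, from edgeR's model; filled points passed the test at an adjusted p under 0.05, the thick line is the median of the 156 and the dotted line the median of all 36235 tested. Filled points show 18 transcripts up and 4 down in APC RNAi, 74 up and 0 down in Bcat RNAi and 47 up and 2 down in control.

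Of the 156, 82 rose in at least 1 treatment. In 17 the rise passed the test in all 3 treatments, in 23 in Bcat RNAi and control, in 32 in Bcat RNAi alone, in 7 in control alone and in 1 in APC RNAi alone. In SmedASXL_011883 and SmedASXL_003929 a rise in Bcat RNAi went with a fall in another treatment. A further 71 passed in no treatment and in no direction. Combinations were counted for the 156 only, so these numbers show no trait particular to them. Passing in one treatment and not in another does not show that the slopes differ; the test of the differences is given below. Of the 33 transcripts of at least 20 CPM, 4 rose in APC RNAi, 17 under Bcat RNAi and 12 in control. Of the 70 under 5 CPM 3, 23 and 11 did. The shares of all transcripts at these levels were not computed.

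Of the 17, SmedASXL_008557 had the largest Bcat RNAi slope of the whole list and 1 of the 2 largest called slopes in APC RNAi. Its levels at days 1 to 6 were 0.747, 0.663, 1.08, 0.746, 1.57 and 1.72 CPM in APC RNAi. In Bcat RNAi they were 1.54, 3.50, 4.63, 5.31, 6.65 and 7.75 CPM, against 1.37, 1.61, 2.67, 3.00, 3.99 and 4.02 CPM in control. The 3 treatments overlapped across days, and day 1 or 2 was the lowest of each. The slope was 0.26 ± 0.07 log2 units per day in APC RNAi (adjusted p = 0.0499, edgeR), 0.37 ± 0.06 in Bcat RNAi (adjusted p = 0.000249) and 0.29 ± 0.06 in control (adjusted p = 0.00377). The APC RNAi call sat at the threshold and was lost without any 1 of the 6 days (adjusted p 0.0527 to 0.196, edgeR), without the control day 1 library (0.0635), and with RLE factors or loess offsets in place of TMM (0.0813 and 0.0819).

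SmedASXL_009214 was the other. It had 0.949, 1.38, 1.56, 1.52, 2.43 and 2.59 CPM at days 1 to 6 in APC RNAi, 2.31, 3.59, 5.18, 5.24, 6.90 and 6.68 CPM under Bcat RNAi and 2.26, 2.47, 2.41, 3.42, 4.68 and 4.43 CPM in control. Its days 5 and 6 were the highest in every treatment, and its treatments overlapped across days. It rose by 0.26 ± 0.06 log2 units per day in APC RNAi (adjusted p = 0.0144, edgeR), a call lost without day 1 (adjusted p = 0.173) or day 2 (adjusted p = 0.0532).

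In control the steepest rises were those of SmedASXL_019288 and SmedASXL_008441. SmedASXL_019288 had 0.848, 1.23, 1.53, 1.30, 1.59 and 1.904 CPM at days 1 to 6 in APC RNAi, 2.17, 3.55, 4.84, 5.86, 5.68 and 6.33 CPM under Bcat RNAi and 1.42, 2.18, 2.35, 3.22, 4.70 and 4.83 CPM in control. Its control slope was 0.31 ± 0.05 log2 units per day (adjusted p = 0.000213, edgeR), and it also rose in Bcat RNAi, by 0.26 ± 0.05 (adjusted p = 0.00114, edgeR). In APC RNAi the slope was 0.16 ± 0.05 and did not pass (adjusted p = 0.108, edgeR). Control at days 5 and 6 was above Bcat RNAi at days 1 and 2, and APC RNAi at day 6 was above control at day 1, so the treatments overlapped across days.

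SmedASXL_008441 had 0.848, 0.834, 0.6252, 1.203, 0.948 and 1.28 CPM at days 1 to 6 in APC RNAi, 1.62, 1.96, 2.99, 3.73, 3.42 and 4.37 CPM under Bcat RNAi and 1.05, 1.01, 1.41, 1.77, 2.64 and 2.90 CPM in control. All 3 treatments overlapped across days, and control and Bcat RNAi both rose by the test. The control slope was 0.29 ± 0.05 log2 units per day (adjusted p = 0.00136, edgeR).

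SmedASXL_080365, shown above for its ratio to control, had the second called Bcat RNAi slope, 0.32 ± 0.09 log2 units per day (adjusted p = 0.0277, edgeR). The call was lost without the Bcat RNAi day 1 library (adjusted p = 0.254) and without day 2, 5 or 6 (0.0507, 0.0519 and 0.0703, edgeR), and DESeq2 did not make it (adjusted p = 0.239). SmedASXL_050373 rose in Bcat RNAi by 0.31 ± 0.06 (adjusted p = 0.00174, edgeR).

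Falls were the exception, and the 5 transcripts that fell in some treatment included some of the widest gradients. SmedASXL_011587 fell in APC RNAi, the treatment where it was nearly absent, by 0.50 ± 0.13 log2 units per day (adjusted p = 0.0427, edgeR), with slopes of -0.04 ± 0.04 under Bcat RNAi and -0.01 ± 0.05 in control that did not pass. That fall rests on 39 reads and was lost without day 1, 2, 3 or 6 (adjusted p 0.336, 0.129, 0.0630 and 0.168, edgeR), and with no filter on low counts (0.0701). SmedASXL_011883 fell in APC RNAi by 0.38 ± 0.07 (adjusted p = 0.00406, edgeR; 0.105 without day 1) and rose in Bcat RNAi by 0.29 ± 0.07 (adjusted p = 0.00800, edgeR). Its control slope of -0.16 ± 0.06 did not pass (adjusted p = 0.114, edgeR).

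SmedASXL_003929 and SmedASXL_009015 fell in control. SmedASXL_003929 had 3.07, 2.94, 3.13, 3.01, 3.38 and 3.42 CPM at days 1 to 6 in APC RNAi. It had 7.56, 10.2, 11.3, 13.8, 14.0 and 17.5 CPM under Bcat RNAi and 6.41, 4.57, 5.04, 4.05, 4.86 and 4.39 CPM in control. The treatments did not overlap: APC RNAi was level, Bcat RNAi climbed at each day, and control was highest at day 1. The slope was 0.02 ± 0.04 log2 units per day in APC RNAi (adjusted p = 0.868, edgeR), 0.20 ± 0.03 in Bcat RNAi (adjusted p = 0.000413) and -0.13 ± 0.03 in control (adjusted p = 0.0158). The control fall was lost without the control day 1 library (adjusted p = 0.599), without day 1 or day 6 (0.588 and 0.0966, edgeR), and with library totals in place of TMM (0.0937).

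SmedASXL_009015 had a narrow gradient, with 11.6, 9.52, 10.1, 9.29, 8.62 and 8.71 CPM at days 1 to 6 in APC RNAi. In Bcat RNAi it had 22.6, 23.0, 19.8, 24.2, 20.8 and 22.5 CPM, against 15.1, 13.8, 13.2, 11.9, 11.3 and 11.002 CPM in control. Bcat RNAi stood apart and level, while APC RNAi and control overlapped and both declined. It fell by 0.10 ± 0.02 log2 units per day in APC RNAi (adjusted p = 0.0383, edgeR) and by 0.14 ± 0.02 in control (adjusted p = 0.000850, edgeR). The control call was lost without the control day 1 library (adjusted p = 0.0703) and without day 1 (0.0625, edgeR). The remaining fall was in APC RNAi, in SmedASXL_001168, by 0.24 ± 0.05 (adjusted p = 0.0125, edgeR), which is named after its values were seen, as is the APC RNAi fall of SmedASXL_009015.

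The slopes differed between treatments in few transcripts past the test. In APC RNAi minus Bcat RNAi 0 were higher and 2 lower (0.0524% and 0.0166% of all tested), in Bcat RNAi minus control 1 was higher and 0 lower (0.0193% and 0.0138%), and in APC RNAi minus control 0 were higher and 0 lower (0.0359% and 0.00276%). At an unadjusted p under 0.05 these were 1 and 47, 25 and 1, and 3 and 20, and DESeq2 called 0 and 5, 4 and 0, and 0 and 0. The shares of all tested at an unadjusted p under 0.05 were not computed. The unadjusted counts therefore show no trait particular to the 156. The median difference was -0.08 log2 units per day for APC RNAi minus Bcat RNAi, negative in 134 of the 156, 0.03 for Bcat RNAi minus control and -0.04 for APC RNAi minus control. Over the 15799 that reached the minimum level these medians were 0.01, 0.02 and 0.03, and the first difference was negative in 6578. The median for Bcat RNAi minus control was thus close to that of the 15799. Without the Bcat RNAi day 1 library the median was -0.03 for APC RNAi minus Bcat RNAi and -0.0051 for Bcat RNAi minus control, and without all of day 1 they were -0.05 and -0.0067. The first difference is tied to the choice, since a slope that widens the gap raises Bcat over APC. With day as a replicate block 8 were lower in APC RNAi minus Bcat RNAi, 8 higher in Bcat RNAi minus control and 1 lower in APC RNAi minus control, against 0.0718%, 0.290% and 0.0166% of all tested.

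These counts changed when a day of all treatments or a single library was left out. Such omissions leave fewer points per line, and why the counts changed was not tested. The shares of all tested under these omissions are not given here. The 2 lower in APC RNAi minus Bcat RNAi were 0 without day 1, 1 without day 2, 3, 4 or 6 or without the Bcat RNAi day 1 library, 4 without day 5 and 7 without the control day 1 library. The 1 higher in Bcat RNAi minus control was 0 without day 1, without day 6 or without the control day 1 library, 2 without day 4 and 4 without day 5. The 0 lower in APC RNAi minus control were 1 without the control day 1 library.

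The 3 transcripts past the test were SmedASXL_011883, SmedASXL_008628 and SmedASXL_003929. SmedASXL_011883, which fell in APC RNAi and rose in Bcat RNAi, had a difference of -0.67 ± 0.10 log2 units per day for APC RNAi minus Bcat RNAi (adjusted p = 0.00203, edgeR; 0.250 without day 1). SmedASXL_003929, whose Bcat RNAi and control lines ran apart, had a difference of 0.33 ± 0.05 for Bcat RNAi minus control (adjusted p = 0.00225, edgeR). That call was lost without the control day 1 library (adjusted p = 0.162) and without day 1 or day 6 (0.335 and 0.0515, edgeR).

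SmedASXL_008628 was one of the abundant transcripts. It had 68.8, 60.2, 57.7, 52.5, 60.1 and 46.2 CPM at days 1 to 6 in APC RNAi. In Bcat RNAi it had 130.3, 160.2, 162, 217, 206 and 246 CPM, against 99.8, 72.7, 77.0, 77.5, 86.0 and 92.8 CPM in control. The treatments did not overlap, and Bcat RNAi was highest and APC RNAi lowest at day 6. The slope difference was -0.26 ± 0.05 for APC RNAi minus Bcat RNAi (adjusted p = 0.0494, edgeR), a call lost without day 1, 2, 3, 4 or 6 (adjusted p 0.0689 to 0.690, edgeR), without the Bcat RNAi day 1 library (0.323), and with RLE factors (0.0574).

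The same edgeR test was read for the 60 transcripts that met the reverse of the rule, highest in APC RNAi and lowest in Bcat RNAi. Of these 3 rose and 4 fell in APC RNAi (5% and 6.67%, against 3.16% and 2.51% of the 15799). In Bcat RNAi 0 rose and 20 fell (33.3%), against 5.82% and 4.84%. In control 0 rose and 21 fell (35%), against 4.3% and 15.7%. A transcript that falls in Bcat RNAi also loses in the mean by which it was chosen, so that slope is not wholly separate from the choice. Whether the 2 sets differ was not tested.

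The APC RNAi side of the gradient depended on how libraries were scaled. Per aligned read, as in the rule, the median APC over control of the 15799 was 0.922 (-0.12 on the log2 scale), and after TMM scaling it was 1.10 (0.13), so the median lay on the other side of 1. TMM factors were 0.803 to 0.969 in APC RNAi, 1.01 to 1.13 under Bcat RNAi and 0.969 to 1.15 in control. For the 156 the median APC over control was 0.629 per aligned read and 0.744 after TMM scaling, below 1 and below the median of the 15799 both times, while Bcat over control was 1.64 under both. After TMM scaling Bcat RNAi was above control for 149 to 156 of the 156 at each day and APC RNAi below control for 133 to 152, 101 kept the order at every day, and 62 still met the whole rule. Those 62 include SmedASXL_011587, SmedASXL_050373, SmedASXL_080365, SmedASXL_008557 and SmedASXL_003929 but not SmedASXL_011883, SmedASXL_012943, SmedASXL_018543, SmedASXL_009015 or SmedASXL_009214, whose order in some day did not hold. Within the 62, 6 rose in APC RNAi (9.68%), 36 under Bcat RNAi (58.1%) and 26 in control (41.9%). Within the other 94 the numbers were 12 (12.8%), 38 (40.4%) and 21 (22.3%). Of the 15799, 3.16%, 5.82% and 4.3% rose. The split used each day's level, so the slopes are not wholly separate from it. Whether the 62 and the 94 differ was not tested.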

How the data were processed

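PolyA libraries of 18 pools, 1 per treatment and day, were analysed. Raw read counts for each transcript were deposited, with a table of log2 fold changes and adjusted p-values of APC RNAi against Bcat RNAi, which per the file headers holds only adjusted p-values of at most 0.05. The tools named in the submitters' processing notes are DESeq2 (no version), Bowtie2 2.2.4 and bcl2fastq 1.8.3; settings and the placing of reads shared by similar transcripts are not given in the sources used here. CPM was scaled to aligned reads (total minus unaligned).

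Slopes were tested on the counts in R 4.3.3 with edgeR 4.0.16 (glmQLFit, glmQLFTest): treatment and treatment by numeric day, all 18 libraries, TMM factors, 12 residual degrees of freedom, Benjamini-Hochberg adjustment, threshold 0.05. The filter (filterByExpr by treatment) left out 46720 transcripts holding 0.284% of reads. SEs were computed from the estimate and its F value. DESeq2 1.42.0 and the settings listed at the end were alternatives. The tests of a slope difference from control were run on simulated counts with planted slopes, and the outcome is not given here. The slopes within a treatment and the difference APC RNAi minus Bcat RNAi were not checked this way. Each library is a pool, so p-values measure scatter around a line over days, not spread between animals.

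The 156 transcripts and the rules were chosen with earlier results of these data known. Named were the 2 transcripts with the most extreme value of each ratio, the 2 most abundant, at most 2 called per slope test and direction, and those nearest each limit of the rule. Marker lists could not be used without gene names. Replicate number is day, from the labels; same-day deviations from treatment means correlated at 0.105 to 0.638 (APC RNAi and control), -0.06 to 0.565 (Bcat RNAi and control) and 0.0678 to 0.557 (APC RNAi and Bcat RNAi). No 2 libraries agreed within sampling noise (lowest chi-square per degree of freedom 5.04).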

Additional observations from a re-analysis of the deposited data

Results flagged for a closer look

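SmedASXL_080365 had 1 library far above the others of its treatment in 2 treatments, day 1 in both: 0.384 CPM in APC RNAi, where the other days lay between 0.0241 and 0.103 CPM, and 2.09 CPM in control, where they lay between 0.426 and 0.787 CPM. Of 42 groups of 6 libraries examined by Dixon's criterion these were the 2 with such a library, and chance gives about 1 in 20.

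The slopes of 3 transcripts differed between treatments by edgeR's test of the difference, in log2 units per day: -0.67 for SmedASXL_011883 and -0.26 for SmedASXL_008628 in APC RNAi minus Bcat RNAi, and 0.33 for SmedASXL_003929 in Bcat RNAi minus control. No explanation was tested.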

How the results depend on the processing

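The slopes were refitted under other settings. Counts that moved over 1.5 times are as follows, against 18 up and 4 down in APC RNAi, 74 up in Bcat RNAi and 47 up and 2 down in control. For settings that keep all libraries, shares of all transcripts tested are in brackets. With the settings used above these shares were 1.58% up and 1.15% down in APC RNAi. They were 2.87% up in Bcat RNAi and 2.94% up and 7.24% down in control. With late minus early days in place of a line, 0 were up (0.0773%) and 1 down (0.0138%) in APC RNAi. In Bcat RNAi 3 were up (0.0524%), and in control 2 were up (0.0248%) and 0 down (0.149%). Fewer of all transcripts tested also passed with late minus early days. In APC RNAi 11 were up with RLE factors (0.618%) and 30 with library totals (5.08%), and DESeq2 gave 9 down (5%). The share of all tested moved the same way as the count in each of these. In control RLE factors, loess offsets and no filter each gave 4 down (6.79%, 4.35% and 1.99%), library totals 1 (2.43%) and DESeq2 7 (16.2%). For RLE factors, loess offsets and no filter the share of all tested was lower while the count was higher. Leaving out 1 day or library gave 6 to 22 up and 0 to 8 down in APC RNAi, 13 to 79 up in Bcat RNAi and 25 to 51 up and 0 to 7 down in control.

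For slope differences, APC RNAi minus Bcat RNAi had 2 lower (0.0166% of all tested). The count was 1 with RLE factors (0.0138%), 5 with no filter (0.035%) and 1 with late minus early days (0.00552%). It was 5 by DESeq2 (0.0823%), 8 with the replicate block (0.0718%) and 0 to 7 with 1 day or library left out. Bcat RNAi minus control had 1 higher (0.0193%), and 8 with no filter (0.14%) and 0 with late minus early days (0%). The count was 4 by DESeq2 (0.112%), 8 with the block (0.29%) and 0 to 4 with 1 left out. APC RNAi minus control had 0 lower (0.00276%): 1 with the block (0.0166%) and 0 to 1 with 1 left out. The block changed none of the 3 named calls of a difference.

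The rule kept 62 transcripts with TMM scaling and 54 with RLE scaling, 240 when the daily order was not needed and 146 to 240 with 1 day left out (240 without day 1). No named slope changed sign. In APC RNAi rises outnumbered falls except with late minus early days (0 up, 1 down). The median slope difference Bcat RNAi minus control became negative with library totals (-0.0022), without the Bcat RNAi day 1 library (-0.0051) and without day 1 (-0.0067). Late minus early days lost every slope call named by the rule except the 2 of SmedASXL_011883. Where a call or count changed, the cause was not tested. Leaving out a day or library leaves fewer points per line, while late minus early days used all 18 libraries. Transcripts under 1 CPM in APC RNAi rest on few reads.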
